A study of Mus musculus with 8 samples.

Results

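The RNA of 9 genes that make, break down or sense vitamin D and retinoic acid was followed in whole 4T1.13 mammary tumours with and without knockdown of microRNA-21. The genes were a named set: Cyp24a1, Vdr, Cyp27b1, Rxra, Rara, Rarb, Rarg, Aldh1a1 and Aldh1a3, which are 9 of the 27179 genes in the count table. They were chosen by name, with their measured fold changes between knockdown and control tumours, the same comparison as here, already known, so their fold changes and adjusted p-values are given as a description and support nothing beyond it. All 9 passed the filter on low counts. Cyp24a1 passed it only through the control tumours, since a single knockdown tumour reached the filter's level of 0.793 counts per 1000000 (CPM).

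4T1.13 is a metastatic line of the mouse mammary carcinoma 4T1. The control tumours, 4T1.13-VC (VC), came from cells carrying a lentiviral miArrest vector that expresses a scrambled RNA. The knockdown tumours, 4T1.13-miR-21-KD (miR-21-KD), carried the same backbone with an RNA that sequesters mature miR-21 under the H1 promoter, and both lines shared its mCherry reporter and hygromycin B resistance gene. Each line was a pool of single-cell clones, so any effect of the clones cannot be told apart from that of the knockdown. For each of the 4 VC and 4 miR-21-KD tumours, 100000 cells were placed in a mammary fat pad of a young adult BALB/c mouse, and the labels give recovery at day 14, as the knockdown tumours began to regress, while the study's text gives an earlier day.

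Vitamin D made in the skin or eaten is hydroxylated at carbon atoms of its side chain and ring to the active hormone calcitriol, the last step being carried out by the 1α-hydroxylase Cyp27b1. Calcitriol binds the nuclear receptor Vdr, which pairs with a retinoid X receptor such as Rxra on DNA, and the 24-hydroxylase Cyp24a1 both inactivates calcitriol and is itself a classical Vdr target. Retinoic acid is made from retinol through retinaldehyde, the last step being catalysed by the retinaldehyde dehydrogenases Aldh1a1, Aldh1a2 and Aldh1a3. It binds the retinoic acid receptors Rara, Rarb and Rarg, which also pair with retinoid X receptors, and it is cleared by the Cyp26 hydroxylases. In mammary tissue the pathways are known for their bearing on epithelial differentiation, and macrophages and fibroblasts use both.

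The mature microRNA that the vector sequesters is shown because the whole design turns on it. It lies at chr11:86584120-86584141 on the minus strand of GRCm38.p6, and the sequence is that of RefSeq with the seed, bases 2 to 8, in capitals.
mmu-miR-21a-5p: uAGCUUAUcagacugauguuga
The row of its gene, Mir21a, held 0 counts in all 8 tumours, so the knockdown itself could not be checked in these counts of longer RNA.

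Receptors of both pathways are known to bind pairs of a short half-site spaced as direct repeats. Vdr favours a spacer of 3 bases, the element being called DR3, and the retinoic acid receptors favour spacers of 5 or 2, called DR5 and DR2. Pairs with these spacers, each half-site being AGGTCA or its variant GGGTCA, or else the form AGTTCA or its own variant GGTTCA, were searched on both strands in the RefSeq promoters of GRCm38.p6, each 250 bases before to 50 after a transcript's start. An entry was found for 7 of the 9 genes, all but Cyp24a1 and Aldh1a3, and for 59 genes of the 9 and the pathway lists together. DR5 pairs were found in 32 of 32851 promoters (0.0974%) and in those of 2 of the 59 genes, Rarb and Cyp26a1, the latter a retinoic acid hydroxylase. The DR2 pair was in 88 promoters (0.268%) and the DR3 pair in 13 (0.0396%), neither among the 59 genes. The DR5 windows are shown with the element in capitals, each 5′ to 3′ on its gene's strand.
Rarb: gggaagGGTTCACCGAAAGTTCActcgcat
Cyp26a1: taaagaTGAACTTTGGGTGAACTaatttgt
The Rarb window is chr14:16575506-16575535 on the minus strand, inside the span of the gene and ahead of the start of one of its shorter transcripts, with the element at bases -53 to -37 from that start. The Cyp26a1 window is chr19:37697770-37697799 on the plus strand, next to the annotated start of the gene, and holds the element on the opposite strand at bases -32 to -16. Neither gene gave a called change, as described below, and a match of letters is not a binding site.

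Sequencing depth was even, with 12134849 to 13592695 counted reads in a VC tumour and 12550898 to 12783800 in a miR-21-KD tumour. A count of 0 therefore allows up to 0.221 to 0.245 CPM (3 counts of the total), which covers counting error only. Differences were tested for 14382 genes with edgeR's quasi-likelihood test and Benjamini-Hochberg adjustment over all of them, a call being an adjusted p under 0.05. Log2 fold changes are miR-21-KD minus VC, with their standard error. This fit compared the groups without the replicate number, although tumours of the same number deviated together. A block for the replicate number was run as an alternative. The labels call the tumours replicates without naming the animals, so the p-values measure the spread between these tumours. In whole tumours, fewer cells of a type and less RNA per cell cannot be told apart.

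Of the 9 genes, 3 were called higher in miR-21-KD tumours (Vdr, Aldh1a1 and Aldh1a3), 2 lower (Cyp24a1 and Rarg) and 4 neither (Cyp27b1, Rxra, Rara and Rarb). Of all tested genes 39.1% were called, 19.6% higher and 19.5% lower. The groups did not overlap in CPM for the same 5 genes, against 35.2% of all tested genes. Their median log2 fold change was 0.28, against -0.01 over all tested genes. Called changes of over 2-fold left Aldh1a1 and Aldh1a3 on the higher side, where 10.7% of tested genes stood, and Cyp24a1 on the lower side, where 4.24% stood.

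**Figure D1:**
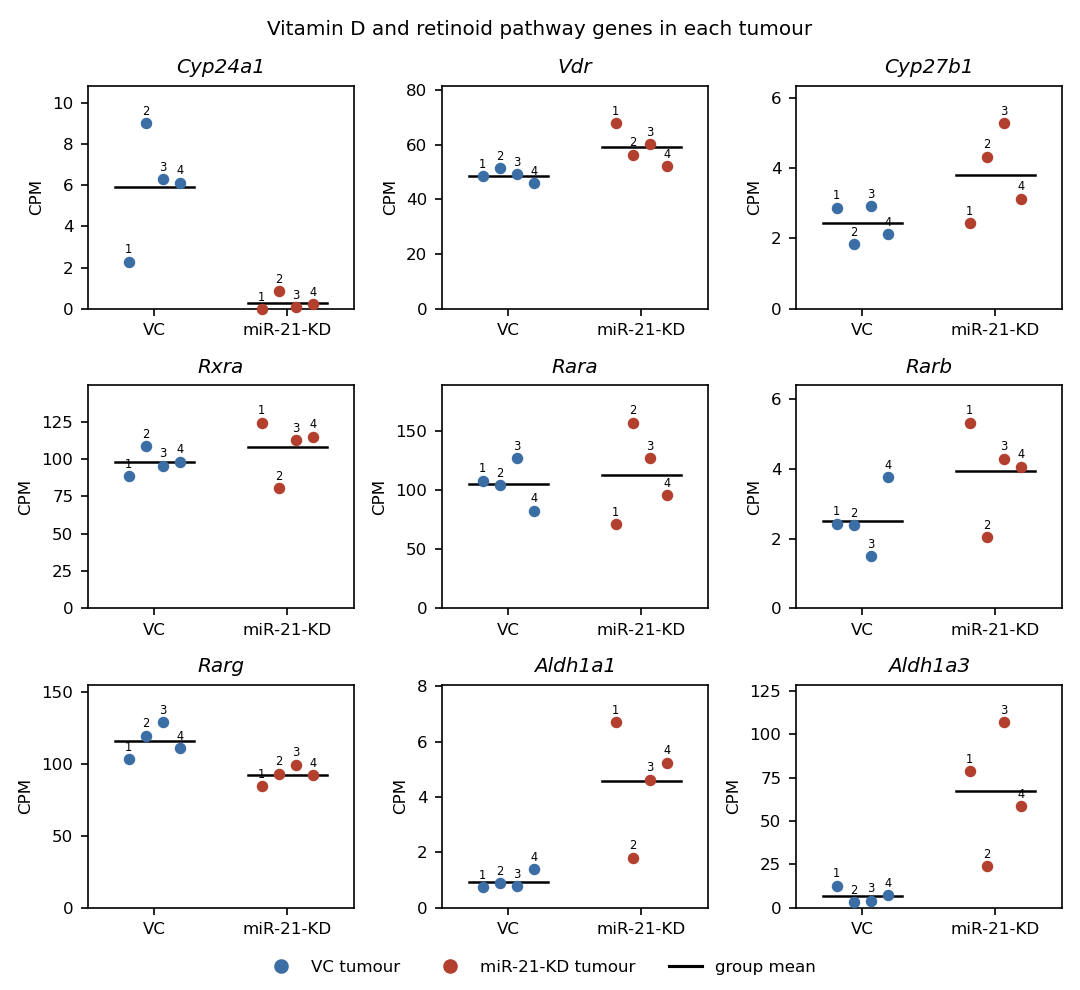
CPM on linear axes from 0 of the 9 genes in each VC (blue) and miR-21-KD (red) tumour, with the replicate number above each point and a line at the group mean. Cyp24a1 and Rarg lie lower, and Vdr, Aldh1a1 and Aldh1a3 higher, in all 4 miR-21-KD tumours than in all 4 VC tumours, whereas the other genes overlap.

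Cyp24a1, the enzyme that starts the breakdown of calcitriol, was close to the limit of detection in the knockdown tumours. Its gene lies at chr2:170482708-170497145 on the minus strand of GRCm38. The VC tumours 1 to 4 had 2.29, 9.01, 6.3 and 6.13 CPM. The miR-21-KD tumours 1 to 4 had 0, 0.865, 0.0812 and 0.235 CPM, made of 0, 11, 1 and 3 reads. The groups did not overlap, VC 1 being the lowest control and miR-21-KD 2 the highest knockdown tumour. The group means were 5.93 ± 2.77 and 0.295 ± 0.392 CPM (SD, n = 4), a 20.1-fold difference, with 299 reads in the VC tumours together and 15 in the knockdown tumours. Cyp24a1 fell by 4.27 on the log2 scale (SE 0.78, adjusted p = 0.00751), and 2 tested genes fell further. The count of 0 in miR-21-KD 1 allows up to 0.242 CPM. Without miR-21-KD 2, which held most of the knockdown reads, the log2 fold change was -5.68. Its exons share 83 bases (2.33%) with Pfdn4 on the other strand, a prefoldin subunit with 20.5 ± 4.04 CPM in the knockdown tumours, and whether the counting used strand is not given in the sources used here.

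Upstream of that step, Cyp27b1, the 1α-hydroxylase that makes calcitriol (chr10:127048250-127053006, plus strand), was low in both groups. It had 2.88, 1.83, 2.92 and 2.13 CPM in VC tumours 1 to 4, and 2.42, 4.32, 5.28 and 3.13 CPM in miR-21-KD tumours 1 to 4. Only miR-21-KD 1 fell within the VC range. The log2 fold change of 0.63 (SE 0.29) did not pass the test (adjusted p = 0.114), nor did it with any tumour left out.

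Vdr, the receptor itself (chr15:97854425-97910630, minus strand), lay in a narrow band in the controls, with 48.5, 51.5, 49.2 and 45.9 CPM in VC tumours 1 to 4. The miR-21-KD tumours 1 to 4 had 67.9, 56.4, 60.3 and 52.1 CPM. All 4 were above the highest control, miR-21-KD 4 by 0.672 CPM. The increase was 1.21-fold (log2 0.28, SE 0.10) and stood close to the threshold, with an adjusted p of 0.0456. It was no longer past it under 9 of 15 alternatives. Among these were limma-voom (0.0506), scaling by library size alone (0.0577) and no filter on low counts (0.0914). The call was also lost without VC 1 (0.0790), VC 2 (0.0789), VC 3 (0.105), VC 4 (0.0964), miR-21-KD 1 (0.0991) or miR-21-KD 3 (0.0998).

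Rxra, the shared partner of Vdr and of the retinoic acid receptors (chr2:27676440-27762957, plus strand), showed overlapping groups. It had 88.6, 109, 95.5 and 98.3 CPM in VC tumours 1 to 4 and 124, 80.6, 112 and 115 CPM in miR-21-KD tumours 1 to 4. The knockdown tumours 1, 3 and 4 were above every control and miR-21-KD 2 was below every control. The log2 fold change of 0.14 (SE 0.14) did not pass (adjusted p = 0.416), and without miR-21-KD 2 it was 0.26 with an adjusted p of 0.0468.

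Of the other genes for vitamin D supply, Dhcr7, which turns the skin precursor 7-dehydrocholesterol into cholesterol and so draws it away from vitamin D, was 51.2 ± 9.14 CPM in control and 31.4 ± 1.04 in knockdown tumours. It fell by 0.70 on the log2 scale (SE 0.13, adjusted p = 0.00734), without overlap. Cyp27a1, a mitochondrial sterol hydroxylase that can 25-hydroxylate vitamin D, moved the other way, from 11.5 ± 3.22 to 31.2 ± 12.7 CPM (log2 1.44, SE 0.32, adjusted p = 0.0122). Cubn, part of the receptor that takes up vitamin D with its carrier, was 2.68 ± 0.658 and 2.51 ± 0.761 CPM and was not past the threshold (adjusted p = 0.81). Its sign changed without VC 1 or miR-21-KD 4. The 25-hydroxylase Cyp2r1 and the uptake receptor Lrp2 were too low to test, and Gc, the plasma carrier, had no reads in any tumour.

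Of 10 tested partners and cofactors of Vdr beyond Vdr and Rxra, 1 was higher and 3 lower (40%, against 39.1% of all tested genes). Under the replicate block, where the calls over all genes rose from 5626 to 6485, and without VC 4, 5 were lower. The nuclear receptor coactivator Ncoa3 rose from 89.4 ± 14.5 to 144 ± 18.2 CPM (log2 0.69, adjusted p = 0.00922). The splicing factor and coactivator Snw1 fell by 0.40 on the log2 scale (adjusted p = 0.00989), the disulfide isomerase Pdia3 by 0.47 (0.0136) and the chromatin remodeller subunit Baz1b by 0.36 (0.0138), all 3 without overlap. Rxrb, a second retinoid X receptor, was 46.4 ± 5.05 and 51.8 ± 4.54 CPM and did not pass (adjusted p = 0.25).

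Of 8 tested calcitriol targets other than Cyp24a1, 4 were higher and 1 lower (median log2 fold change 0.72), where 19.6% and 19.5% of all tested genes were. Without VC 2, VC 3 or miR-21-KD 4 the list held 1 higher and 1 lower gene, and without miR-21-KD 1 or 3 it held 2 and 1. Calls over all genes fell as well, from 5626 to 3290, 2936 and 3366 without VC 2, VC 3 and miR-21-KD 4. The inhibitor of cyclin-dependent kinases Cdkn1a rose from 111 ± 26.5 to 216 ± 28.6 CPM (log2 0.97, SE 0.18, adjusted p = 0.00771). The lipopolysaccharide co-receptor Cd14 rose by 0.88 (SE 0.23, adjusted p = 0.0195) and thrombomodulin, Thbd, by 0.96 (SE 0.28, adjusted p = 0.0289), both with overlap. The call of Cd14 was lost without VC 2 (0.0556), VC 3 (0.0592) or miR-21-KD 4 (0.0559). That of Thbd was lost without VC 2 (0.0781), VC 3 (0.0640), or miR-21-KD 1 (0.0694), 3 (0.0692) or 4 (0.0700). Igfbp3, a binding protein of insulin-like growth factors, fell by 0.93 on the log2 scale (SE 0.22, adjusted p = 0.0149), from 459 ± 92.6 to 242 ± 65.1 CPM. The intestinal calcium genes of the list, Trpv5, Trpv6, S100g and Calb1, were too low to test under the main filter, Trpv5 and Calb1 with no read in any tumour. S100g had 1 read in the VC tumours together and 24 in the knockdown tumours, without overlap, and Trpv6 had 10 and 38, with overlap. With no filter on low counts, 5 of 11 tested targets other than Cyp24a1 were higher and 1 lower. Over the 3 vitamin D lists without the 9 genes, 6 of 21 tested genes were higher and 5 lower, with a median of -0.10 (52.4% called, against 39.1% of all tested genes). Without VC 2, VC 3 or miR-21-KD 4, 3 were higher and 5 lower, and without miR-21-KD 1 or 3, 4 and 5.

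The largest rises of the 9 genes were in the enzymes that make retinoic acid. Aldh1a3 (chr7:66390890-66427517, minus strand) had 12.7, 3.19, 4.10 and 7.44 CPM in VC tumours 1 to 4. It had 78.7, 23.9, 107 and 58.8 CPM in miR-21-KD tumours 1 to 4. All knockdown tumours were above all controls, VC 1 being the highest control and miR-21-KD 2 the lowest knockdown tumour. The means were 6.85 ± 4.29 and 67.1 ± 35 CPM, a 9.80-fold rise (log2 3.29, SE 0.55, adjusted p = 0.00663), and with a tumour left out the log2 value lay between 2.97 and 3.78.

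Aldh1a1 (chr19:20492715-20643465, plus strand) was scarce in the controls, with 0.737, 0.878, 0.788 and 1.39 CPM in VC tumours 1 to 4. The miR-21-KD tumours 1 to 4 had 6.71, 1.81, 4.63 and 5.24 CPM. The groups did not overlap, the nearest being VC 4 and miR-21-KD 2 at a distance of 0.418 CPM. Its means were 0.948 ± 0.300 and 4.60 ± 2.05 CPM, a 4.85-fold rise (log2 2.27, SE 0.42, adjusted p = 0.00759) that rests on 48 and 230 reads.

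Aldh1a2, the third enzyme of the family, was not among the 9 genes and is described because the family is incomplete without it, a choice made after its values were seen. It had 52.4, 5.42, 15.8 and 16.7 CPM in VC tumours 1 to 4 and 112, 86.0, 173 and 101 CPM in miR-21-KD tumours 1 to 4. VC 1 stood well above the other controls and still below every knockdown tumour. The log2 fold change was 2.38 (SE 0.58, adjusted p = 0.0158), with 3.22 without VC 1 and a lost call without VC 3 (adjusted p = 0.0511).

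Per kilobase of exon (CPM divided by the length of the GENCODE exons), which allows levels of different genes to be compared, Aldh1a2 was the highest of the 3 enzymes in all 8 tumours. Its level was 9.97 ± 9.06 CPM per kb in control and 52.1 ± 16.8 in knockdown tumours. That of Aldh1a3 was 1.48 ± 0.930 and 14.5 ± 7.58, and that of Aldh1a1 0.192 ± 0.0608 and 0.931 ± 0.416. The summed level of the 3 enzymes was 11.6 ± 9.93 and 67.6 ± 24.1 CPM per kb. Aldh1a2 made up 82.2% of that sum in control and 78.1% in knockdown tumours on average, and Aldh1a3 15% and 20.5%, with overlapping shares for each.

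**Figure D2:**
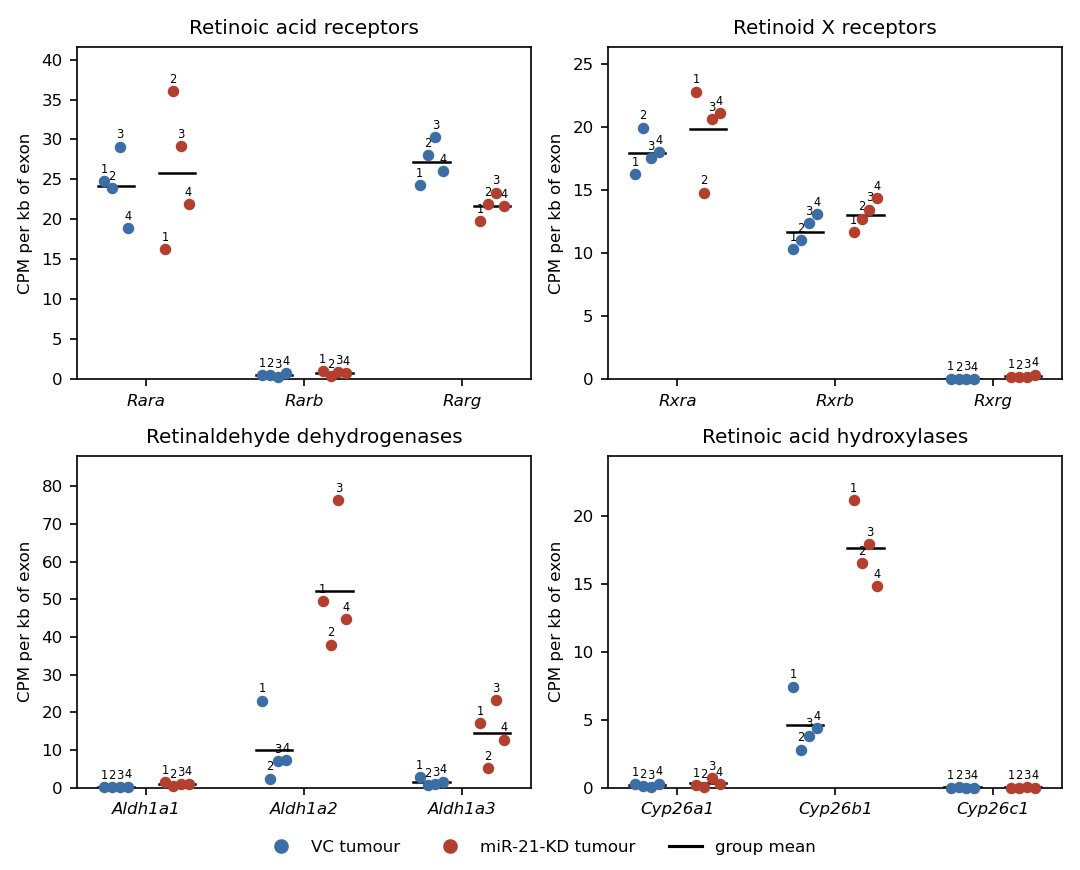
CPM per kilobase of exon, on linear axes from 0, for 4 gene families in each VC (blue) and miR-21-KD (red) tumour, numbered by replicate, with lines at the group means. Aldh1a2 and Cyp26b1 carry most of their families, while Rara and Rarg lie far above Rarb, and Rxra and Rxrb far above Rxrg.

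Earlier steps of the retinoid pathway moved in both directions. Of 13 tested genes for uptake, storage and synthesis other than Aldh1a1 and Aldh1a3, 7 were higher and 3 lower, where 19.6% and 19.5% of all tested genes were. The median log2 fold change was 0.77, against -0.01 over all tested genes. Retinol-handling genes that rose include the acyltransferase Dgat1, from 24.4 ± 1.98 to 41.7 ± 6.6 CPM (log2 0.77, SE 0.13, adjusted p = 0.00629). The dehydrogenase Dhrs9, which can oxidise retinol, rose by 0.89 (SE 0.16, adjusted p = 0.0071). Dhrs3, which works against it by reducing retinaldehyde back to retinol, rose by 1.22 (SE 0.27, adjusted p = 0.0118). The alcohol dehydrogenase Adh1 (log2 2.75, SE 0.60, adjusted p = 0.0118) and the plasma retinol carrier Rbp4 (log2 2.18, SE 0.50, adjusted p = 0.0135) are named for their size, after their values were seen. The groups did not overlap for any of these 5 genes.

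The genes called lower in this list, 3 in number, act in retinol uptake, storage and turnover. Stra6, the membrane receptor that takes up retinol from Rbp4, had 9.95 ± 2.96 CPM in control and 5.14 ± 0.475 in knockdown tumours and fell by 0.95 on the log2 scale (SE 0.22, adjusted p = 0.0138). Rdh11, a retinaldehyde reductase, fell by 0.55 (SE 0.11, adjusted p = 0.00848). Lrat, the acyltransferase that esterifies retinol for storage, had 11.3, 7.98, 5.28 and 4.74 CPM in VC and 2.34, 3.30, 5.28 and 2.58 CPM in miR-21-KD tumours, the groups meeting at VC 3 and 4 and miR-21-KD 3. Lrat fell by 1.12 (SE 0.36, adjusted p = 0.0381), but the call was lost with the replicate number as a block (adjusted p = 0.0574). It was also lost without VC 1 (0.0927), VC 2 (0.0852), VC 3 (0.0536), or miR-21-KD 1 (0.0914), 2 (0.0583) or 4 (0.0983).

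**Figure D3:**
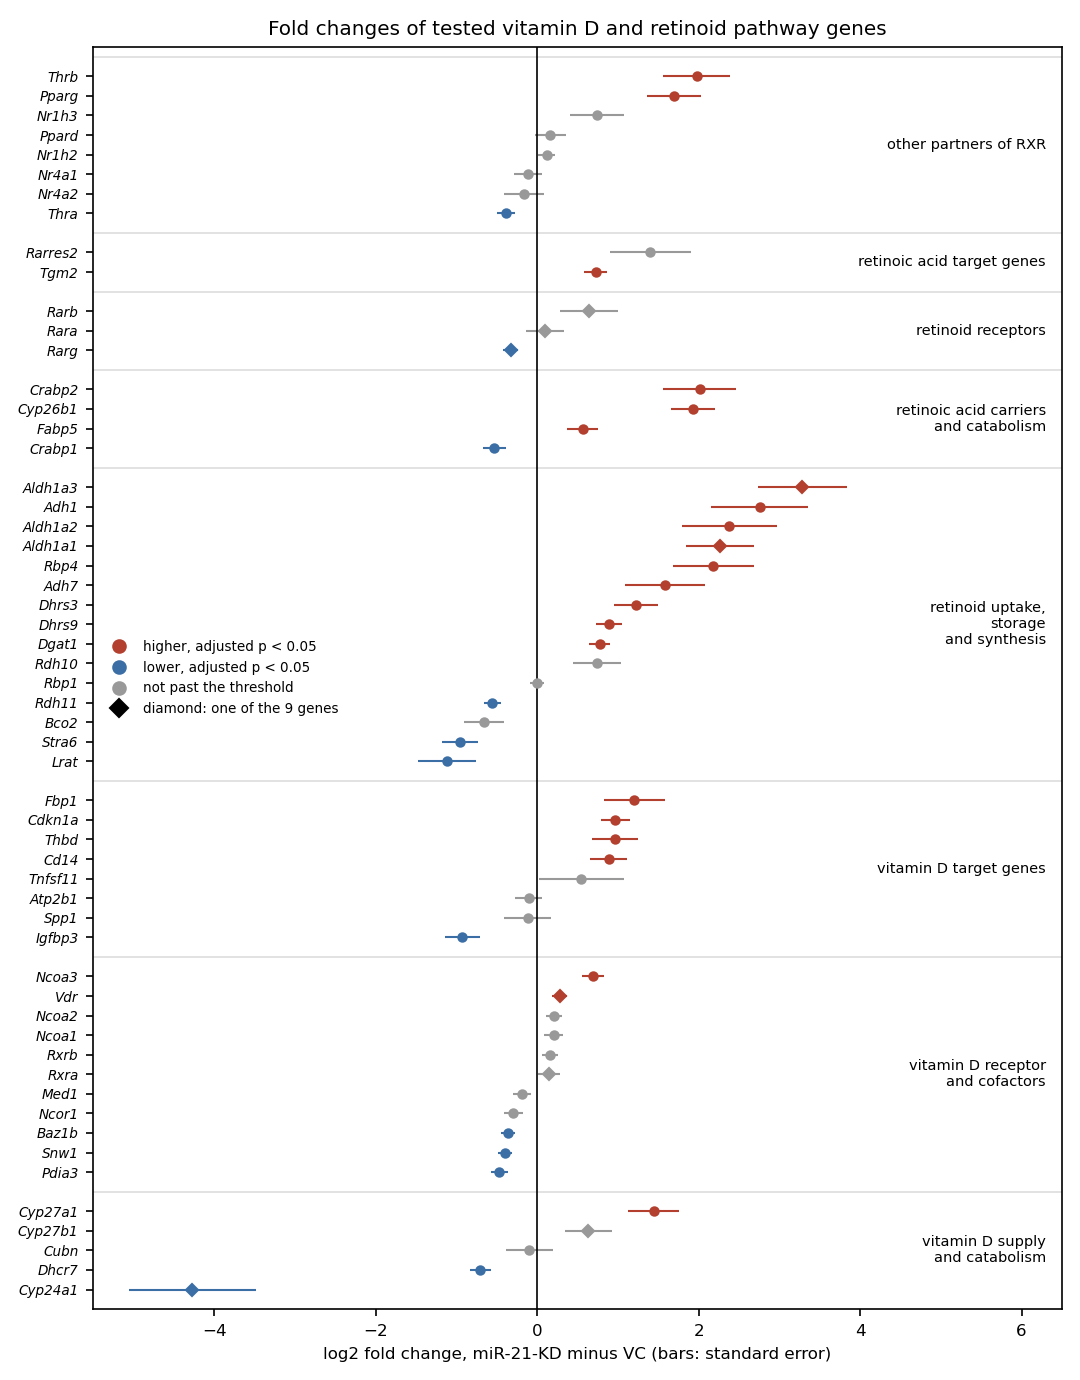
Log2 fold change, miR-21-KD minus VC, with its standard error for tested genes of the pathway lists, each gene drawn in the first list that holds it, red or blue where the adjusted p is under 0.05 and diamonds for the 9 genes. Cyp24a1 at -4.27 and Aldh1a3 at 3.29 mark the ends of the range. Of the 3 genes in the retinoid receptor row Rarg, at -0.33, is coloured, where 39.1% of all tested genes were called.

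The genes that carry and clear retinoic acid gave 3 higher and 1 lower of 4 tested, against 39.1% of all tested genes called. Without VC 3 or miR-21-KD 4, 2 were higher and none lower, and with the replicate block 2 were higher and 1 lower. Cyp26b1, a hydroxylase that inactivates retinoic acid, had 39.8, 15, 20.5 and 23.5 CPM in VC tumours 1 to 4 and 113, 88.4, 96.1 and 79.4 CPM in miR-21-KD tumours 1 to 4. Every knockdown tumour was above every control. It rose 3.82-fold (log2 1.93, SE 0.28, adjusted p = 0.00558), and held 96.0% of the summed Cyp26 level per kilobase in control and 98.3% in knockdown tumours on average. Cyp26a1, whose promoter holds the DR5 element printed above, was too low to test, at 0.352 ± 0.233 and 0.603 ± 0.535 CPM.

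Among the carriers, Crabp2, which delivers retinoic acid to its receptors, rose from 3.31 ± 2.19 to 13.4 ± 4.85 CPM (log2 2.01, SE 0.46, adjusted p = 0.0128). Crabp1, its cytosolic relative, went the other way and fell by 0.53 (SE 0.14, adjusted p = 0.0193), with 38.7 ± 7.02 and 26.7 ± 2.32 CPM. That call was lost without VC 3 (0.0540) or miR-21-KD 4 (0.0534). Fabp5, a fatty acid binding protein that also carries retinoic acid, was 66.8 ± 12.4 and 98.6 ± 25.8 CPM with overlap (log2 0.56, SE 0.20, adjusted p = 0.0492). Under the replicate block its adjusted p was 0.0596, and it was also past 0.05 without VC 1 (0.0784), VC 2 (0.123), VC 3 (0.129), or miR-21-KD 3 (0.112) or 4 (0.100), with library size alone (0.0518) and with no filter (0.0680).

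Of the 3 receptors for retinoic acid, Rarg was called and Rara and Rarb were not, where 39.1% of all tested genes were called. Rarg (chr15:102234938-102257517, minus strand) had 103, 120, 129 and 111 CPM in VC tumours 1 to 4 and 84.3, 93.3, 99.4 and 92.3 CPM in miR-21-KD tumours 1 to 4. All knockdown tumours were below all controls, the nearest pair being 3.97 CPM apart. It fell by 0.33 on the log2 scale (SE 0.09, adjusted p = 0.0243), a 1.25-fold difference. The call was lost without VC 2 (0.0663), VC 3 (0.0720), miR-21-KD 1 (0.0600) or miR-21-KD 4 (0.0607).

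Rara (chr11:98927818-98974942, plus strand) spread more within the knockdown group than between groups. Its values were 108, 104, 127 and 82.6 CPM in VC tumours 1 to 4 and 71.0, 157, 127 and 95.6 CPM in miR-21-KD tumours 1 to 4. The lowest and the highest value of the 8 tumours were both knockdown tumours. The log2 fold change was 0.10 (SE 0.24, adjusted p = 0.768), with a change of sign to -0.01 without VC 4 and to -0.11 without miR-21-KD 2.

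Rarb, in most tissues the receptor that retinoic acid itself induces, lies at chr14:16430839-16819156 on the minus strand. It had 2.43, 2.39, 1.5 and 3.76 CPM in VC tumours 1 to 4 and 5.33, 2.04, 4.30 and 4.07 CPM in miR-21-KD tumours 1 to 4. The knockdown tumours 1, 3 and 4 were above all controls and miR-21-KD 2 was within their range. The log2 fold change of 0.64 (SE 0.36) did not pass the test (adjusted p = 0.177). Of its 5265 exon bases, 1793 (34.1%) are shared with the topoisomerase gene Top2b on the other strand, which had 115 ± 9.93 and 134 ± 14.9 CPM and did not pass (log2 0.21, adjusted p = 0.129). Without knowledge of strand in the counting, reads of Rarb and Top2b cannot be told apart there.

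Per kilobase of exon, Rara stood at 24.2 ± 4.18 in control and 25.8 ± 8.60 in knockdown tumours, Rarg at 27.2 ± 2.6 and 21.7 ± 1.46, and Rarb at 0.479 ± 0.177 and 0.748 ± 0.262. The ranges of Rara and Rarg overlapped in both groups, and Rarb was below both in all tumours. Rxra was at 17.9 ± 1.54 and 19.8 ± 3.49 and Rxrb at 11.7 ± 1.27 and 13.0 ± 1.14. Rxrg reached only 0.0166 ± 0.0192 and 0.208 ± 0.0907, from 1, 0, 1 and 0 reads in VC tumours 1 to 4 and 5, 4, 5 and 10 reads in miR-21-KD tumours 1 to 4. All knockdown tumours were above all controls, but the gene was too low to test under the main filter. With no filter on low counts Rxrg was called higher, on these few reads. On the same scale Vdr was at 8.63 ± 0.408 and 10.5 ± 1.19, below Rxra and Rara in both groups. Cyp24a1 was at 1.67 ± 0.777 and 0.0829 ± 0.110, and Cyp27b1 at 0.947 ± 0.211 and 1.47 ± 0.491. The order of the group means per kilobase thus changed in the vitamin D genes, with Cyp24a1 above Cyp27b1 among the controls and below it among the knockdown tumours. In VC 1, Cyp24a1 was already the lower of the pair, at 0.642 against 1.12.

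Known targets of retinoic acid other than Rarb gave 4 higher and 3 lower of 9 tested genes, against 39.1% of all tested genes called, a list that includes Cyp26b1, Crabp2, Dhrs3, Stra6 and Lrat from above. Without VC 1, VC 2, VC 3, miR-21-KD 1 or miR-21-KD 4, 4 were higher and 1 lower. Tgm2, tissue transglutaminase, rose from 793 ± 127 to 1311 ± 121 CPM (log2 0.72, SE 0.14, adjusted p = 0.00815).

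Over all retinoid lists without the 9 genes, 11 of 21 tested genes were higher and 5 lower, with a median of 0.74 (76.2% called, against 39.1% of all tested genes). The numbers were 8 and 2 without VC 3 and 9 and 2 without miR-21-KD 4, and 9 to 13 higher and 3 or 4 lower without another tumour. Over all 8 pathway lists without the 9 genes, 49 of 68 genes were tested and 30 called, 19 higher and 11 lower (61.2%, against 39.1% of all tested genes). These lists too were drawn up with results known, and nothing is read from the difference.

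**Figure D4:**
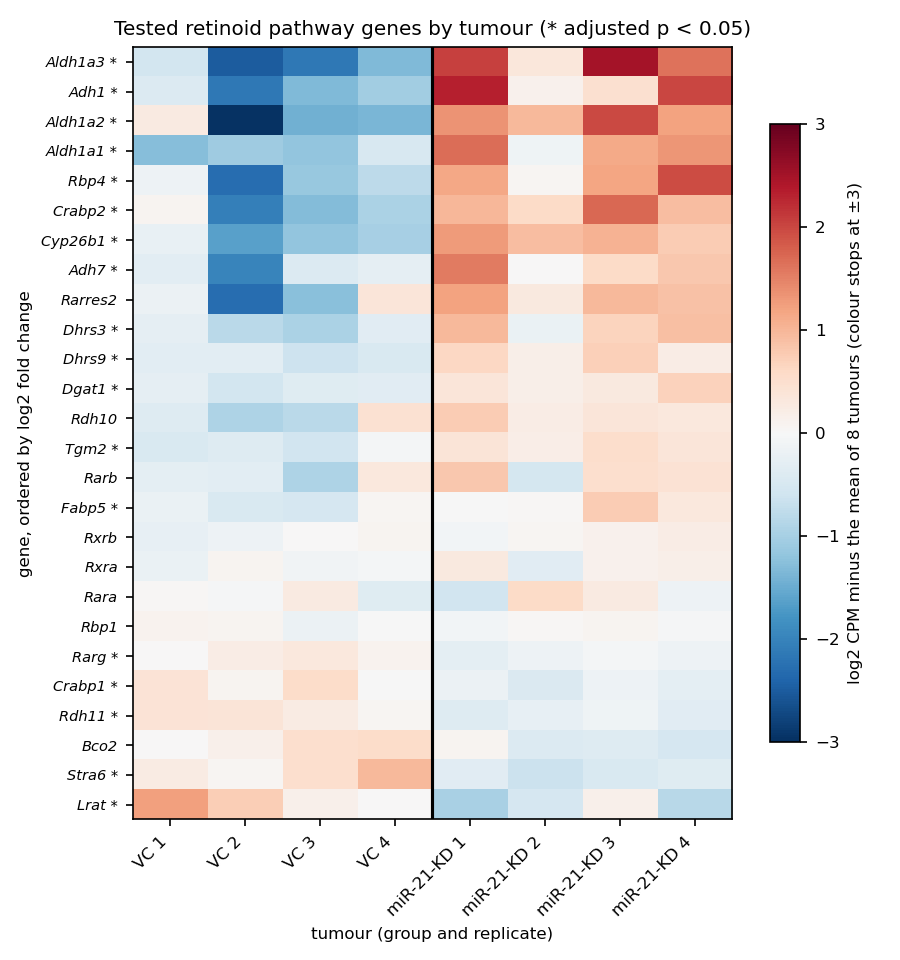
Log2 CPM minus the mean of the 8 tumours (colour scale from -3 to 3) for tested genes of the retinoid lists, ordered by log2 fold change, with 1 column per tumour and a line between VC and miR-21-KD. VC 1 is paler than the other controls, and miR-21-KD 2 paler than the other knockdown tumours, for many of the genes with the largest rises.

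Of 8 tested nuclear receptors that also pair with Rxra, 2 were higher and 1 lower (37.5%, against 39.1% of all tested genes). Pparg, the fat cell regulator, rose from 4.86 ± 2.29 to 15.8 ± 4.26 CPM (log2 1.70, SE 0.33, adjusted p = 0.00873). The thyroid hormone receptors split, with Thrb higher by 1.97 (SE 0.41, adjusted p = 0.0101) and Thra lower by 0.38 (SE 0.11, adjusted p = 0.0282). The Thra call was lost without VC 2 (0.0799), VC 4 (0.0554), or miR-21-KD 3 (0.0670) or 4 (0.0775).

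The tumours did not contribute equally. Among the 22 genes called higher, the 9 included, miR-21-KD 2 was the lowest knockdown tumour for 18 and the highest for none. VC 1 was the highest control for 13 of the 22 and VC 4 for 7. Among the 13 genes called lower, miR-21-KD 2 was the highest knockdown tumour for 6 and miR-21-KD 3 for 5.

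Markers of cell types differed between the groups as well. The summed CPM of 8 macrophage markers was 2495 to 3726 in the controls and 5050 to 7912 in the knockdown tumours, that of 8 fibroblast markers 1796 to 4093 and 5912 to 12349, and that of 5 adipocyte markers 85.2 to 320 and 428 to 1124. Of these lists 6, 6 and 5 genes were called higher and none lower, where 19.6% of all tested genes were higher and 19.5% lower. The 6 dendritic cell markers summed to 54.8 to 175 and 182 to 342 CPM, with 2 higher (33.3% called, against 39.1% of all tested genes). miR-21-KD 2 had the lowest sum of the knockdown tumours for macrophage, fibroblast and adipocyte markers, and VC 1 the highest sum of the controls for the same 3. The tumours nearest to the other group were VC 1 and miR-21-KD 2 for Aldh1a3, VC 4 and miR-21-KD 2 for Aldh1a1, and VC 1 and miR-21-KD 4 for Cyp26b1. The part of these cells in the results for Aldh1a1, Aldh1a3, Cyp26b1, Crabp2, Rbp4, Pparg, Cd14 and the other genes that rose was not tested.

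Tumour cells themselves are epithelial, and 9 epithelial markers summed to 1295 to 2229 CPM in the controls and 1057 to 1978 in the knockdown tumours, with overlap. Of them 7 were called higher and the keratin Krt18 lower (88.9% called, against 39.1% of all tested genes). In the controls most of the sum was Krt18 and Krt8. Their means went from 1022 to 460 CPM and from 808 to 439 CPM, Krt8 not past the threshold (adjusted p = 0.087). The sum therefore does not follow the 7 markers that rose. The part of epithelial cells in the results for Cyp24a1, Rarg and the other genes was not tested either. The summed CPM overlapped for 7 T cell markers (36.1 to 138 and 131 to 288, 6 higher), 4 B cell markers (1.76 to 141 and 8.52 to 60.4, none called), 4 neutrophil markers (265 to 739 and 338 to 587, none called) and 5 endothelial markers (323 to 584 and 487 to 701, 1 higher). The called shares were 85.7% for T cell and 20% for endothelial markers, against 39.1% of all tested genes. No marker of any list was at 0 in all tumours.

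For each of the 9 genes, the 3 genes with the most similar profile were taken by the root mean square difference of log2 CPM over the 8 tumours, each gene being scaled to mean 0 and SD 1. Nearest to Cyp24a1 were Dph7, at a difference of 0.0562 SD, Pmf1 at 0.0875 and Xrcc6 at 0.0900. Aldh1a3 was nearest to Ms4a6d, at 0.0686, Cd200r1 at 0.0888 and Galnt6 at 0.108. For Aldh1a1 they were Tmem106a, at 0.0961, Card9 at 0.104 and Atp13a2 at 0.112. A close match to a gene whose groups are apart must itself differ between the groups, so that these neighbours did follows from their choice. Their log2 fold changes were of smaller size than those of the genes they resemble. They ran from 0.68 for Tmem106a to 1.53 for Galnt6 and from -0.73 for Dph7 to -0.94 for Pmf1. The scaled measure takes no account of size.

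The other 6 genes had less close neighbours. Rarg was nearest to Tmem41b (0.151), Ascc1 (0.164) and 1110004F10Rik (0.170), Rarb to Lmo2 (0.198), Cerox1 (0.215) and Map7d3 (0.215), and Rxra to Cdip1 (0.209), Zfp759 (0.247) and Stag3 (0.265). Rara was nearest to Bcar3 (0.211), Tagln2 (0.215) and Ankrd9 (0.221), Cyp27b1 to Stbd1 (0.216), Egln1 (0.228) and Ak4 (0.229), and Vdr to Disc1 (0.235), Epg5 (0.270) and Fam160b1 (0.271). Between the 9 genes themselves the closest pair was Aldh1a1 and Aldh1a3, at 0.389 SD, followed by Cyp24a1 and Rarg at 0.456 and Rarb and Aldh1a1 at 0.546. The distance from Cyp24a1 to Vdr was 1.79. All these distances include the group difference and share the 8 tumours, so they describe the profiles only.

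**Figure D5:**
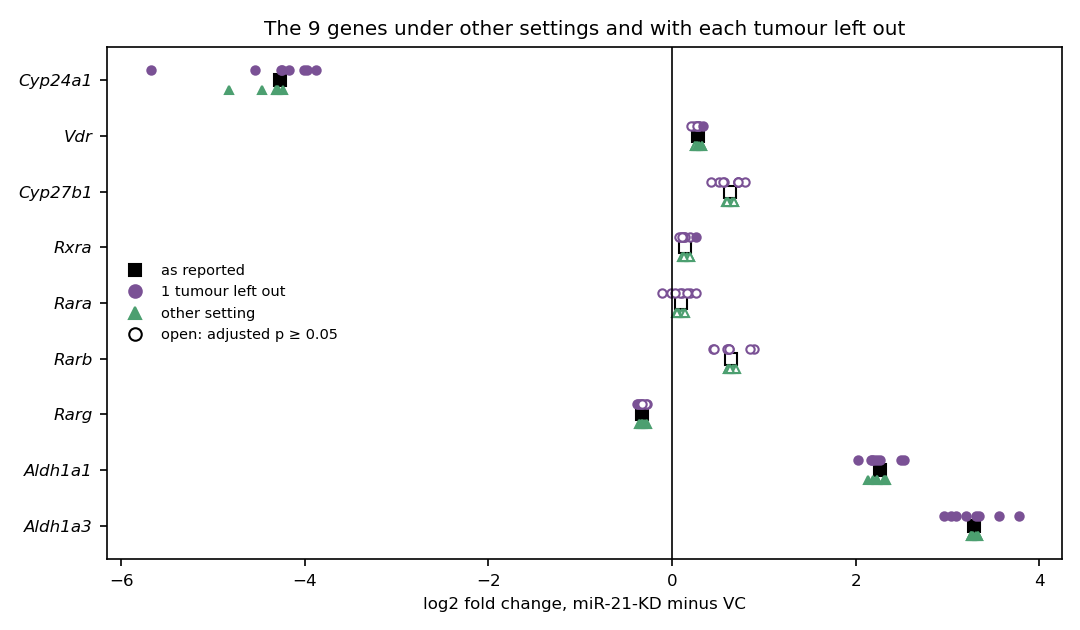
Log2 fold change, miR-21-KD minus VC, of the 9 genes as reported (squares), with 1 tumour left out (circles) and under other settings (triangles), open where the adjusted p is 0.05 or more. Cyp24a1, Aldh1a1 and Aldh1a3 stay past the threshold wherever a value could be had, while Vdr and Rarg lie near it and Rara near 0.

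With each tumour left out in turn and under every other setting tried, Cyp24a1 lay between -5.68 and -3.87, Aldh1a1 between 2.03 and 2.53 and Aldh1a3 between 2.97 and 3.78, with adjusted p-values of at most 0.0287, 0.0298 and 0.0266. A filter of 10 counts in every tumour leaves Cyp24a1 out and so gives it no value. Between 3 and 6 of the 9 genes were called when a tumour was left out, while the calls over all genes ranged from 2936 to 6840. The number was 3 without VC 2, VC 3 or miR-21-KD 1, and 6 without miR-21-KD 2, where Rxra joined.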

How the data were processed

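The authors deposited raw counts per gene with Entrez identifiers and no normalization, 1 column per tumour, for 4 VC and 4 miR-21-KD tumours. The submitters' processing notes name mm10, Subread, featureCounts, edgeR and limma, without roles. Versions, annotation and strand setting are not given in the sources used here. Symbols were matched for 25275 of 27179 identifiers through RefSeq (GRCm38.p6), and positions and exon lengths came from GENCODE (GRCm38). In R 4.3.3 with edgeR 4.0.16, filterByExpr (minimum count 10, minimum total 15) kept 14382 genes with 99.852% of reads. TMM gave the library scaling. The groups were compared by the quasi-likelihood test in its robust form, with Benjamini-Hochberg adjustment at 0.05. CPM use TMM-scaled library sizes, with a prior count of 2 for log2 CPM. The script was tested on simulated data.

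The 9 genes, the lists and the tests were chosen with earlier results of these data known. Named were the 9 genes, every other tested gene of the vitamin D supply, retinoic acid carrier and retinoid receptor lists, up to 3 further called genes in each direction of each other list by adjusted p, and the 3 nearest profiles of each of the 9. Aldh1a2, Adh1 and Rbp4 were added after their values were seen, as were genes named for lacking reads. Some genes of the lists are counted but not reported here by name.

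Alternatives were scaling by library size or upper quartile, DESeq2 1.42.0, limma-voom (limma 3.58.1), no filter, at least 10 counts in every tumour, a block for the replicate number, an adjusted p under 0.01, and each tumour left out. Tumours with the same replicate number deviated together, with correlations of deviations from the group means of 0.272, 0.421, 0.175 and 0.376 for numbers 1 to 4. The mean over the other 12 combinations was -0.105. Deviations within a group sum to 0, so that mean largely follows from the same-number values and is no separate evidence. Other ways of pairing the tumours were not compared. What the numbers share is not stated. The main fit did not use them, and the block is an alternative that takes them as pairs. Tumours of the same group always differed beyond sampling noise (chi-square per degree of freedom 12.6 to 70.7).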

Additional observations from a re-analysis of the deposited data

Results flagged for a closer look

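Of 78 groups of 4 tumours examined, 2 held a tumour far from the others, and chance gives about 1 in 20. Baz1b was at 240 CPM in VC 2 against 225 to 226 in the other VC tumours. Thbd was at 23.8 CPM in miR-21-KD 2 against 37.5 to 41.1 in the other miR-21-KD tumours.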

How the results depend on the processing

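As reported, 5626 of all tested genes, 5 of the 9 genes and 30 other genes of the pathway lists were called. At an adjusted p under 0.01 these counts were 1426, 3 and 10. With 1 tumour left out they ranged from 2936 to 6840, from 3 to 6 and from 21 to 33, the lowest count of all genes coming without VC 3. It was also over 1.5 times lower without VC 2 (3290), miR-21-KD 3 (3750) or miR-21-KD 4 (3366). The highest count, 6840, came with 1 tumour left out as well. In the fit with a replicate block the counts were 6485, 5 and 33, and among the genes named from the lists the block changed no call except those of Fabp5 and Lrat. Over 39 genes and their alternatives, 527 of 582 values kept direction and side of the threshold, 50 were no longer past it and 1 became so. The 4 that turned sign were not called: Rara, between -0.11 and 0.26 with a tumour left out, and Cubn, between -0.28 and 0.074. The causes were not tested. A filter of 10 counts in every tumour gave no value for Cyp24a1, Thrb and Adh1. Other scalings moved the median of all genes by less than 0.1 on the log2 scale. Depth limits Cyp24a1 in the knockdown tumours, Aldh1a1 in the controls and the genes too low to test.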
